A study of Mus musculus with 2 samples.

Results

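The cell cycle and mitosis genes of the array were taken by name, as the gene spots whose name in the files begins with a word for a cyclin, a cyclin-dependent kinase (CDK), a cell division cycle (CDC) protein, a checkpoint or spindle protein, a centromere protein, E2F, retinoblastoma, geminin, wee 1, Ki 67, p53, a growth arrest protein or a septin. Membership follows from the name alone, and clones named only as ESTs were left out. There were 67 such spots among 8735 gene spots, with 66 distinct names, because Cdc37 was spotted 2 times. Zygotes of the B6CBF1 strain were injected with siRNA against leukemia inhibitory factor (LIF), a secreted cytokine, or with scrambled siRNA as the control, at a dose given in the labels as 1.0 fmole (the methods state another), and were cultured to the morula stage (whole embryo, age 4 d in the labels). On each of 2 cDNA arrays, RNA of pooled morulae with LIF-siRNA (Cy5) was hybridized against RNA of pooled morulae with scrambled siRNA (Cy3). Since neither array had the dyes the other way round, dye and treatment cannot be told apart. Whether each array had its own pool of embryos is not stated, and p-values here measure only the spread between these arrays, which may be technical. Both groups carried an injected siRNA, uninjected embryos were not on the arrays, and the array had no spot with the name of LIF, so that the arrays give no check of the knockdown, which the study examined by protein staining. The labels also hold a description of untreated embryonic stem cells with 4 replicates, which disagrees with the titles and the RNA sources, and the groups were taken from the latter and the dyes.

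Cell division is driven by CDKs, which are active only when a cyclin is bound to them. Different cyclins are made in G1, S phase, G2 and mitosis, small inhibitor proteins block the kinases, and checkpoints hold the cycle until DNA is copied and each chromosome is attached to the spindle. Mouse embryos before implantation divide without growth of the embryo, and many transcripts of mitosis are abundant in them.

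All values below are the deposited log ratios turned to log2, LIF-siRNA over scrambled siRNA, so that a log2 ratio of -1 is a ratio of 0.5 and a log2 ratio of 0 is an equal signal. Of the 67 spots, 66 were well above background by the scanner software in both channels on both arrays, and none of them carried an outlier flag. Septin 6 was not well above background and was not tested (log2 ratio -0.77 on array 1 and -0.80 on array 2, on processed signals of 11 to 27). The members were brighter over their local background than the array as a whole. Their median signal over local background was 15.1 in Cy5 and 15.5 in Cy3 on array 1, against 6.42 and 5.72 over all gene spots. On array 2 it was 13.9 and 12.1, against 6.60 and 4.83. The median SD of the log2 ratio between the arrays was 0.213 for the members tested and 0.249 for all 8079 probes tested, and the log2 ratio differed in sign between the arrays for 18 of the 66 members, beside 26.5% of all probes tested.

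**Figure D1:**
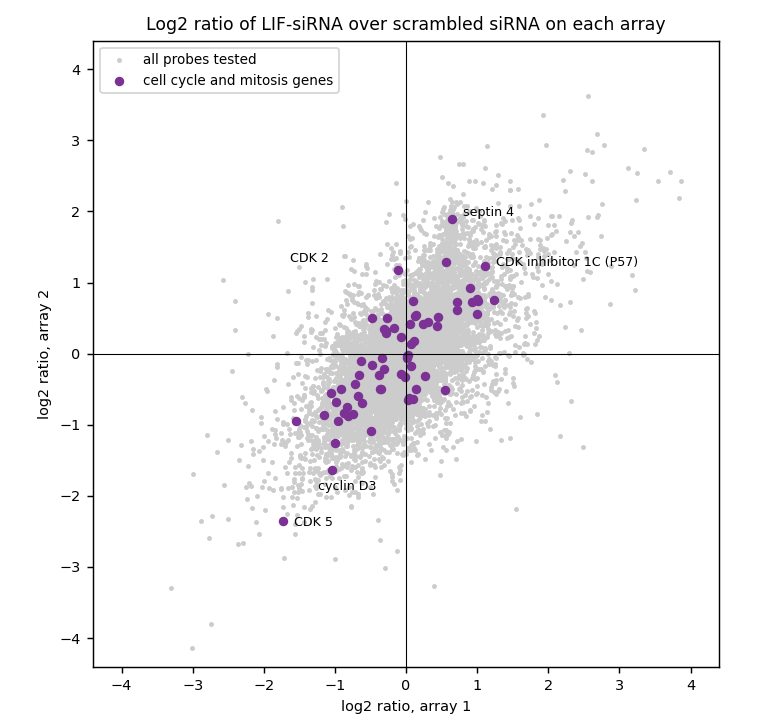
Log2 ratio of LIF-siRNA over scrambled siRNA on array 1 (x axis) against array 2 (y axis); grey points are the 8079 probes tested and purple points the 66 cell cycle and mitosis genes tested. CDK5 lies lowest of the members at -1.73 and -2.35, and CDK2 stands off the diagonal with -0.11 on array 1 and 1.18 on array 2.

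Cell cycle and mitosis genes were found on both sides of 0. The log2 ratio was below 0 on both arrays for 27 of the 66 members tested (40.9%), where 36.8% of all probes tested were, and above 0 on both arrays for 21 members (31.8%), where 36.7% of all probes were. The median of the members' mean log2 ratio was -0.02, and that of all probes tested was -0.00. The shares and the median of the members thus lay near those of the array. These are bulk RNA samples, in which fewer cells of a type and less RNA per cell cannot be told apart.

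The criteria stated in the methods ask for a ratio over 2 or under 0.5 together with a signal of more than 1000 in either channel. Here they were applied to the mean ratio of both arrays and to the processed signal, so these counts are not those of the study's own selection, whose rule for combining the arrays is not given in the methods. Applied so, 3 of the 41 members past the signal threshold were lower (7.32%) and 0 were higher. Over the array, 5.42% of the 3527 gene spots past the signal threshold were lower and 5.33% were higher. The 3 lower members were cyclin D3, Cdc25A and Bub1 beta. Cdc25A passed the signal threshold in the scrambled channel alone (1701 and 1549, against 581 and 805 after LIF-siRNA). Its entry was thus not independent of its direction. Without the signal threshold 5 of 67 members were lower, with CDK5 and cyclin T1 (5.13% of the 8712 gene spots without an outlier flag), and 2 were higher, p57 and septin 4 (6.55%). With well above background in its place the counts over 66 members were the same (5.27% and 6.96% of all probes). On array 1 alone 4 of 41 members were lower, cyclin D3, Cdc25A, Bub1 beta and cyclin B1, related sequence 1 (6.15% of gene spots), and 2 were higher, growth arrest specific 6 and the Mcm3-associated protein (5.03%). On array 2 alone 2 of 43 were lower, cyclin D3 and Bub1 beta (7.46%), and 1 was higher, CDK2 (7.29%). With both thresholds passed on each array, cyclin D3 and Bub1 beta were lower, 2 of 40 (3.77%), and 0 were higher (2.45%). The criteria involve no test. When limma was used to test each log2 ratio against 0, no member and no other probe had a Benjamini-Hochberg adjusted p under 0.05 (0 of 66 members and 0.0% of the 8079 probes tested). Before adjustment, limma gave a p under 0.05 for 28 of the 66 members and for 30.7% of all probes. These were 17 lower members, where 14.8% of all probes were called lower, and 11 higher members, where 15.9% were called higher. By the methods' t-test, 0 members and 0.0% of all probes passed after adjustment, and 13 members passed before it, at a background of 10.7%. The members' adjusted p by limma ran from 0.058 to 0.996, and an exact sign permutation over 2 arrays cannot give a two-sided p below 0.5.

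The count of members called differed between settings of limma. The filters below change both the probes that share the adjustment and the variance that limma borrows across probes, and which of these moved a count was not tested. When limma was fitted to the probes past the signal threshold alone, 13 of the 41 members had an adjusted p under 0.05, and 18.7% of the 3527 probes did. The 9 lower members were cyclin D3, cyclin F, cyclin I, Cdc25A, Ki 67, Bub1 beta, polo-like kinase, centromere autoantigen A and CDC-like kinase 2, where 10.0% of those probes were called lower. The 4 higher members were the Cdc71-like protein, cyclin D binding myb-like transcription factor 1, growth arrest specific 6 and the Mcm3-associated protein, where 8.68% were called higher. Of these 13, the signal of Cdc25A and CDC-like kinase 2 passed the threshold in the scrambled channel alone, so that their entry into this fit was not independent of their direction, and the other 11 passed it in both channels. When the signal was instead averaged over both channels, limma called 17 of the 39 members that entered (43.6%), these 13 among them, at a background of 22.2% of 3244 probes. Averaging did not remove the dependence on direction. The mean signal of Cdc25A was 693 after LIF-siRNA and 1625 after scrambled siRNA, and that of CDC-like kinase 2 was 800 and 1547. Both still entered through their higher scrambled signal. With an intensity trend in limma, these 13 were all among the 18 members called, at a background of 13.7%. On ratios without lowess, limma took 1 common variance for all probes, so that a member's own spread between the arrays did not enter. There 17 members were called, at a background of 17.7%. These were 12 lower members, where 7.55% of all probes were called lower, and 5 higher members, where 10.1% were called higher. The 17 held all 9 of the lower members above and none of the 4 higher ones. The 5 higher members called were cyclin D2, p57, growth arrest specific 7, septin 1 and septin 4. With normexp and loess, 0 members and 1.83% of all probes were called by limma, against 30 members and 31.1% of all probes before adjustment. By limma, the adjusted p of the 13 lay between 0.0226 and 0.0391 among the probes past the signal threshold, between 0.0509 and 0.0712 with normexp and loess, and between 0.157 and 0.162 with no filter on dim probes. Over all settings of limma it ran from 0.000304 for cyclin D3 without lowess to 0.162, and from 0.00919 when the fit without lowess is left aside. Direction could differ only with normexp and loess or without lowess, since the other fits used the same ratios. All 13 kept their direction in both.

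**Figure D2:**
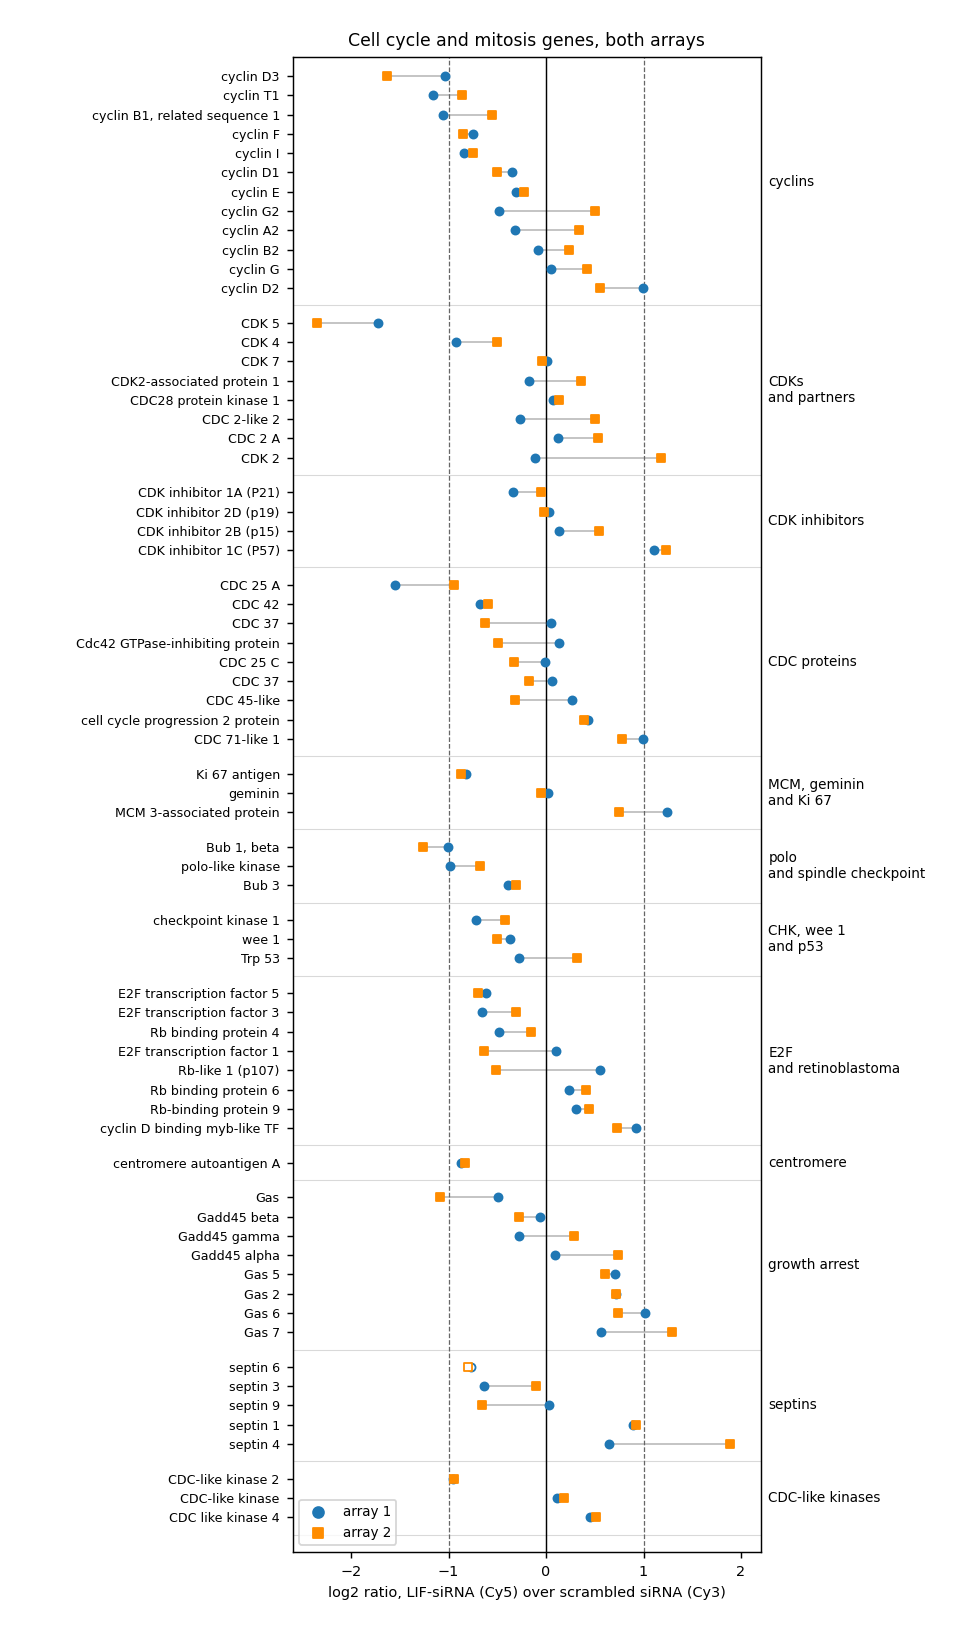
Log2 ratio of LIF-siRNA over scrambled siRNA (x axis) of every cell cycle and mitosis spot, ordered by role; blue circles are array 1, orange squares array 2, open symbols the spot that was not tested, and dashed lines mark ratios of 0.5 and 2. Bub1 beta, polo-like kinase and Bub3 lie below 0 on both arrays, and growth arrest specific 2, 5, 6 and 7 lie above 0 on both.

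For the role groups given here and below, the shares over all probes tested were 36.8% lower and 36.7% higher on both arrays. Among the cyclins, 7 of 12 were lower on both arrays, 2 were higher on both and 3 differed in sign, with a median of -0.34. Cyclin D3, a G1 cyclin that activates CDK4 and CDK6, had a processed signal of 2989 and 2161 after LIF-siRNA and of 6145 and 6700 after scrambled siRNA, on array 1 and array 2 in this order. The LIF-siRNA signals were both below the scrambled signals and did not overlap with them. Here and below, overlap was judged across both arrays and not within each array. It is not mentioned for every member without overlap, such as CDK4, Cdc2A and the Mcm3-associated protein. The share of all probes without overlap was not counted, so that no result is drawn from it. On the log2 scale the ratios were -1.04 and -1.63, with a mean of -1.34 ± 0.42 (SD, n = 2) and an adjusted p of 0.0672 by limma over all probes. The other D-type cyclins had smaller ratios or dimmer spots. Cyclin D1 had -0.35 and -0.50 on signals of 323 to 456, and cyclin D2 had 0.99 and 0.55 (mean 0.77 ± 0.31) on signals of 55.1 to 110. In Cy3, the cyclin D2 spot was brighter than 95.0% of the 664 blank spots of array 1 and than 94.3% of those of array 2.

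Cyclin E, which drives entry into S phase with CDK2, had log2 ratios of -0.30 and -0.22, with a mean of -0.26 ± 0.06. The cyclins of S phase and mitosis did not share a direction. Cyclin A2, the partner of CDK2 and CDK1 from S phase on, had signals of 12152 and 13962 after LIF-siRNA and of 15112 and 11027 after scrambled siRNA. Its signals overlapped between the groups, with log2 ratios of -0.31 and 0.34. Cyclin B2, a mitotic partner of CDK1, had -0.08 and 0.23. The spot named cyclin B1, related sequence 1 had -1.06 and -0.55, with a mean of -0.81 ± 0.36. Cyclin B1 itself has copies that are nearly identical in sequence, and a cDNA spot of this name may take up transcripts of more than 1 of them.

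Cyclin F, the F-box protein that directs ubiquitin ligation in G2, had signals of 1179 and 1286 after LIF-siRNA and of 1975 and 2327 after scrambled siRNA. The log2 ratios of cyclin F were -0.74 and -0.86, with a mean of -0.80 ± 0.08. Cyclin I had -0.84 and -0.75, with a mean of -0.79 ± 0.06. Cyclin T1, the partner of CDK9 in transcription elongation and no cell cycle regulator, had signals of 233 and 288 after LIF-siRNA and of 521 and 523 after scrambled siRNA, below the signal threshold. In log2, cyclin T1 had -1.16 and -0.86, with a mean of -1.01 ± 0.21 and an adjusted p of 0.0792 by limma. Cyclin G and cyclin G2, both known as targets of p53 or of growth arrest signals, had 0.06 and 0.42 for the former, and -0.48 and 0.50 for the latter.

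Among the CDKs and their partners, 2 of 8 were lower on both arrays, 2 were higher and 4 differed in sign, with a median of 0.10 for the mean of both arrays, -0.14 on array 1 and 0.25 on array 2. CDK5, known for its role in neurons rather than in the cycle, had the lowest mean of all 66 members. Its signal was 101 and 116 after LIF-siRNA and 336 and 592 after scrambled siRNA, and the groups did not overlap. CDK5 had log2 ratios of -1.73 and -2.35, with a mean of -2.04 ± 0.44 and an adjusted p of 0.058 by limma. All 4 signals were under the signal threshold, and with normexp and loess, which shrinks dim spots, the mean log2 ratio was -1.48. Among probes well above background in both channels on both arrays, CDK5 was the 1 member of 66 with an adjusted p under 0.05 by limma (0.0437, at a background of 3.09% of 7575 probes). With an intensity trend the adjusted p of CDK5 by limma was 0.00997, at a background of 13.7% of all probes. Over the other settings its adjusted p by limma reached 0.157 with no filter on dim probes. On ratios without lowess it was 3.6e-07, in the fit with a common variance, which the SD of CDK5 did not enter.

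CDK4, the G1 partner of the D-type cyclins, had signals of 880 and 1026 after LIF-siRNA and of 1667 and 1450 after scrambled siRNA. This gave log2 ratios of -0.92 and -0.50, with a mean of -0.71 ± 0.30 and an adjusted p of 0.122 by limma. CDK2, the partner of cyclin E and cyclin A, had the largest SD of the members tested. The log2 ratios of CDK2 were -0.11 and 1.18 (mean 0.54 ± 0.91), with signals of 1408 and 1846 after LIF-siRNA and of 1517 and 814 after scrambled siRNA, so that the groups overlapped. Cdc2A, the kinase CDK1 that brings cells into mitosis, had signals of 11216 and 12097 after LIF-siRNA and of 10297 and 8355 after scrambled siRNA. The log2 ratios of Cdc2A were 0.12 and 0.53, with a mean of 0.33 ± 0.29 and an adjusted p of 0.377 by limma. CDC28 protein kinase 1, a small subunit that binds CDKs, had 0.07 and 0.13, and CDK7, which activates other CDKs, had 0.01 and -0.04. The Cdc2-like 2 spot had -0.26 and 0.51, and the CDK2-associated protein 1 had -0.18 and 0.36.

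Among the 4 CDK inhibitors, p57 stood above the others. CDK inhibitor 1C (p57), the product of an imprinted gene that holds cells in G1, had signals of 387 and 587 after LIF-siRNA and of 180 and 250 after scrambled siRNA. The groups did not overlap. In log2, p57 had 1.11 and 1.23, with a mean of 1.17 ± 0.09 and an adjusted p of 0.065 by limma. It was the 1 member of 66 above a 2-fold ratio on both arrays, where 2.78% of all probes were. Its spot was under the signal threshold, and with normexp and loess its mean log2 ratio was 0.91. The lower members past 2-fold on both arrays were CDK5, cyclin D3 and Bub1 beta, 3 of 66, where 3.03% of all probes were. CDK inhibitor 1A (p21), a p53 target, had -0.34 and -0.06. CDK inhibitor 2D (p19), which blocks CDK4 and CDK6, had 0.03 and -0.02, and CDK inhibitor 2B (p15), of the same family, had 0.14 and 0.54 on signals of 53.1 to 77.5.

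Of the 9 spots of CDC proteins, 3 were lower on both arrays, 2 were higher and 4 differed in sign, with a median of -0.17 for the mean of both arrays, 0.06 on array 1 and -0.32 on array 2. Cdc25A, the phosphatase that activates CDK2 at the start of S phase, had signals of 581 and 805 after LIF-siRNA and of 1701 and 1549 after scrambled siRNA. The groups did not overlap. In log2, Cdc25A had -1.55 and -0.94, with a mean of -1.25 ± 0.43 and an adjusted p of 0.0726 by limma. Cdc25C, the related phosphatase that acts on CDK1 before mitosis, had -0.01 and -0.32. Cdc45, a part of the replicative helicase, had 0.26 and -0.32. Cdc42, a GTPase of cell polarity, had -0.68 and -0.59, with a mean of -0.64 ± 0.06. The Cdc71-like protein had 1.00 and 0.77 (mean 0.89 ± 0.16), and the cell cycle progression 2 protein had 0.43 and 0.39. Cdc37, a cochaperone of HSP90 for kinases, was measured by 2 spots, with 0.05 and -0.63 on the brighter and 0.06 and -0.18 on the dimmer. The Cdc42 GTPase-inhibiting protein had 0.13 and -0.49.

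Ki 67, the nuclear antigen of dividing cells that coats mitotic chromosomes, had signals of 3801 and 3951 after LIF-siRNA and of 6701 and 7244 after scrambled siRNA. The groups did not overlap, and the log2 ratio was -0.82 and -0.87, with a mean of -0.85 ± 0.04 and an adjusted p of 0.0906 by limma. Geminin, the inhibitor of replication licensing, had nearly equal signals in both groups, 16820 and 14750 after LIF-siRNA and 16629 and 15318 after scrambled siRNA, and log2 ratios of 0.02 and -0.05. The Mcm3-associated protein, which binds the replication protein Mcm3 and takes part in mRNA export, had signals of 3486 and 3365 after LIF-siRNA and of 1478 and 2000 after scrambled siRNA. Its log2 ratios were 1.24 and 0.75, with a mean of 0.99 ± 0.34 and an adjusted p of 0.0876 by limma, and its mean ratio of 1.99 lay just under the 2-fold criterion.

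All 3 members of the polo and spindle checkpoint group were lower on both arrays, where 36.8% of all probes were, with a median of -0.83. With 3 spots, no direction of the group can be read from this. Bub1 beta (BubR1), the checkpoint kinase that delays anaphase until chromosomes are attached, had signals of 2108 and 1991 after LIF-siRNA and of 4234 and 4770 after scrambled siRNA. The groups did not overlap. In log2, Bub1 beta had -1.01 and -1.26, with a mean of -1.13 ± 0.18 and an adjusted p of 0.0694 by limma. Polo-like kinase, which acts in centrosome maturation and spindle assembly, had signals of 1686 and 2404 after LIF-siRNA and of 3339 and 3849 after scrambled siRNA, again without overlap. In log2, polo-like kinase had -0.99 and -0.68, with a mean of -0.83 ± 0.22. Bub3, the partner that brings Bub kinases to kinetochores, had a smaller ratio of -0.39 and -0.31, with a mean of -0.35 ± 0.06 and an adjusted p of 0.319 by limma. Centromere autoantigen A (CENP-A), the histone H3 variant that marks centromeres, had signals of 4475 and 3076 after LIF-siRNA and of 8171 and 5473 after scrambled siRNA. Both LIF-siRNA signals of CENP-A lay below both scrambled signals. In log2, CENP-A had -0.87 and -0.83, with a mean of -0.85 ± 0.03 and an adjusted p of 0.090 by limma.

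**Figure D3:**
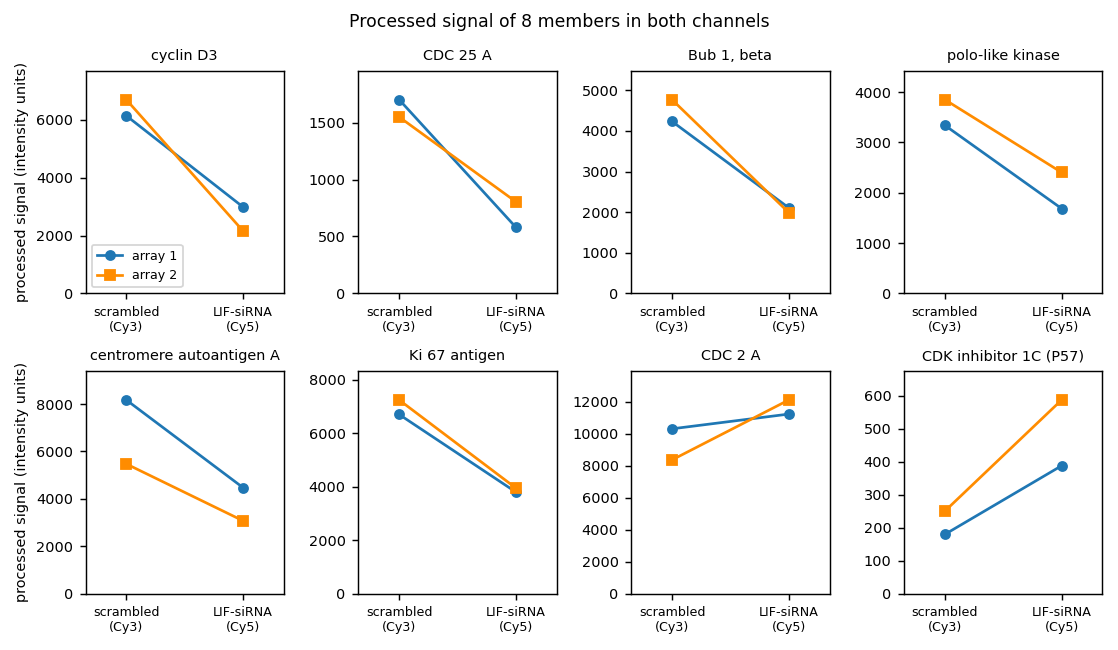
Processed signal in intensity units (y axis, from 0) of 8 members in the scrambled siRNA channel (Cy3) and the LIF-siRNA channel (Cy5); blue circles are array 1, orange squares array 2, and a line joins the channels of an array. Cyclin D3, Cdc25A, Bub1 beta, polo-like kinase, centromere autoantigen A and Ki 67 slope down on both arrays, while Cdc2A and p57 slope up.

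The sequences before the start of 8 of these genes are printed to show which promoter motifs of cell cycle genes lie before members with lower ratios (Ki 67, cyclin F, polo-like kinase, Bub1 beta and CENP-A) and before members whose ratios were near 0 or above it (Cdc2A, cyclin B2 and CDC28 protein kinase 1). Each is the 250 bases before the annotated gene start in RefSeq (mouse build GRCm38.p6), 5′ to 3′ on the strand of the gene, and was matched through a gene symbol given by hand to the name in the files. The motifs searched on both strands were TTTGAA (the cell cycle genes homology region), CCAAT (a box bound by NF-Y) and GCGGGA (part of an E2F site). Capitals mark each match, and none overlapped another. The Ki 67 gene Mki67 at chr7:135716380-135716629 (minus strand) held TTTGAA 2 times and CCAAT 3 times, and the cyclin F gene Ccnf at chr17:24251410-24251659 (minus strand) held each of them 2 times. The polo-like kinase gene Plk1 at chr7:122159185-122159434 (plus strand) held CCAAT 1 time and no TTTGAA. The Bub1 beta gene Bub1b at chr2:118597961-118598210 (plus strand) held CCAAT 1 time and GCGGGA 1 time, at 8 bases before the start, and the CENP-A gene Cenpa at chr5:30666636-30666885 (plus strand) held CCAAT 2 times. The Cdc2A gene Cdk1 at chr10:69352913-69353162 (minus strand) held TTTGAA 2 times and CCAAT 3 times, and the cyclin B2 gene Ccnb2 at chr9:70421555-70421804 (minus strand) held TTTGAA 1 time and CCAAT 3 times. The gene of CDC28 protein kinase 1, Cks1b, at chr3:89418292-89418541 (minus strand) held TTTGAA 2 times, CCAAT 4 times and GCGGGA 1 time. GCGGGA was not found in the other 6 sequences.
Mki67: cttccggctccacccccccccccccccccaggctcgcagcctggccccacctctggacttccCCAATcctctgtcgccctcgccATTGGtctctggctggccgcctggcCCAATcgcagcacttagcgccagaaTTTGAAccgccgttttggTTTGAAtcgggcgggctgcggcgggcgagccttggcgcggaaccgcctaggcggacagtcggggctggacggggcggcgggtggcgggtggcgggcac
Ccnf: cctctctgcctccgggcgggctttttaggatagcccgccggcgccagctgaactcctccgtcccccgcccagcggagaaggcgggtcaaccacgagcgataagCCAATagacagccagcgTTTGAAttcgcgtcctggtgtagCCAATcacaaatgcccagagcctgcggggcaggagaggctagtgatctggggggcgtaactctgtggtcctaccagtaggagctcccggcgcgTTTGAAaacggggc
Plk1: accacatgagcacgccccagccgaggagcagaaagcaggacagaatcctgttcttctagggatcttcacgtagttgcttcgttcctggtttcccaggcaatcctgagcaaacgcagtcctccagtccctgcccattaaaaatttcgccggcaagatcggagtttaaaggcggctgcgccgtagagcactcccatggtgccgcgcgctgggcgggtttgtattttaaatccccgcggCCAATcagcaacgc
Bub1b: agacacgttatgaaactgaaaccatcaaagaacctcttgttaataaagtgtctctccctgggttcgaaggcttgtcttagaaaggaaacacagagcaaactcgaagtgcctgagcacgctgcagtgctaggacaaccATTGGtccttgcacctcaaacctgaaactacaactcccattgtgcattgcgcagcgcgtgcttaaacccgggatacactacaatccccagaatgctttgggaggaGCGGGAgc
Cenpa: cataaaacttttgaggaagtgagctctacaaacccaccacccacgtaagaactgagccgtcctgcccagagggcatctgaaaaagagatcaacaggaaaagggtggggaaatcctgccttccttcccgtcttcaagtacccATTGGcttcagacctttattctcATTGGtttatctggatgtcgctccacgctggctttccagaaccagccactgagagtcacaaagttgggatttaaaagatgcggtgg
Cdk1: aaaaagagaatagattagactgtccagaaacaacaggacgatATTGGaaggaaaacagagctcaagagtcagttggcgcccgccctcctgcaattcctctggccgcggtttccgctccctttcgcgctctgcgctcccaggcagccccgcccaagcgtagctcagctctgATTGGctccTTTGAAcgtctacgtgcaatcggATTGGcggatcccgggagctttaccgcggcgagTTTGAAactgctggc
Ccnb2: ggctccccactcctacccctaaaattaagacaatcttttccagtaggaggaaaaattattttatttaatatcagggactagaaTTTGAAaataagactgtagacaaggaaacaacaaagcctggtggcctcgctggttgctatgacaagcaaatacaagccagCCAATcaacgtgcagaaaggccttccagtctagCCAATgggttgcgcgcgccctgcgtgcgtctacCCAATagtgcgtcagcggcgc
Cks1b: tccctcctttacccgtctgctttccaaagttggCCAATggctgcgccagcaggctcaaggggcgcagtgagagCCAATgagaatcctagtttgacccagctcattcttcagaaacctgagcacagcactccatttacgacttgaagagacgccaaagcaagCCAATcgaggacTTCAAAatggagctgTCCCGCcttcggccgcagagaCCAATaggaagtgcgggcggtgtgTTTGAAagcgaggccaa

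Matches of these letters were thus present both before members with lower ratios and before members with ratios near 0. A match is a description of the letters and not a bound site. Of the 60 distinct symbols given to members, 46 had at least 1 promoter in the table, 58 promoters in all. TTTGAA was held by 13 of these 58, and by 16.0% of the 32851 promoters of the table. CCAAT was held by 29 of the 58, and by 33.8% of all promoters. GCGGGA was held by 18 of the 58, and by 16.9% of all promoters. The start of Ccnf had TTTGAA at 14 bases before it and that of Cdk1 at 15 bases, while their mean log2 ratios were -0.80 and 0.33.

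Of the DNA damage checkpoint, checkpoint kinase 1 (CHK1), which stops the cycle by inhibiting Cdc25 phosphatases, had signals of 5257 and 5453 after LIF-siRNA and of 8644 and 7302 after scrambled siRNA. The groups did not overlap, and the log2 ratio was -0.72 and -0.42, with a mean of -0.57 ± 0.21 and an adjusted p of 0.161 by limma. Wee 1, the kinase that holds CDK1 inactive, had -0.37 and -0.50, with a mean of -0.44 ± 0.10. The p53 tumor suppressor (transformation related protein 53) had -0.28 on array 1 and 0.32 on array 2, so that its direction was not settled. Of its known targets, p21 and cyclin G are given above, Gadd45 alpha had 0.09 and 0.74, and Mdm2 (double minute 2, outside the members), the ubiquitin ligase of p53, had 0.11 and 0.75. The proteins related to Gadd45 alpha had -0.07 and -0.28 for Gadd45 beta, and -0.28 and 0.29 for Gadd45 gamma.

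The E2F and retinoblastoma group held 8 spots, of which 3 were lower on both arrays, 3 were higher and 2 differed in sign, with a median of -0.12 for the mean of both arrays, 0.17 on array 1 and -0.23 on array 2. E2F1 and E2F3 are activators of S phase genes, and E2F5 is a repressor. E2F3 had -0.66 and -0.31, E2F5 had -0.61 and -0.70, and E2F1 had 0.10 and -0.63, all on signals under the threshold (138 to 532). The retinoblastoma-like protein p107, which binds repressor E2Fs, had 0.55 on array 1 and -0.51 on array 2, with an SD of 0.75. Retinoblastoma binding protein 4, a histone chaperone, had -0.48 and -0.16, retinoblastoma binding protein 6 had 0.24 and 0.41, and retinoblastoma-binding protein 9 had 0.31 and 0.44. Cyclin D binding myb-like transcription factor 1 (Dmtf1), known to activate the Arf tumor suppressor, stood above the rest of the group. Its signals were 13349 and 10378 after LIF-siRNA and 7045 and 6247 after scrambled siRNA, without overlap. In log2, Dmtf1 had 0.92 and 0.73, with a mean of 0.83 ± 0.13 and an adjusted p of 0.0934 by limma.

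**Figure D4:**
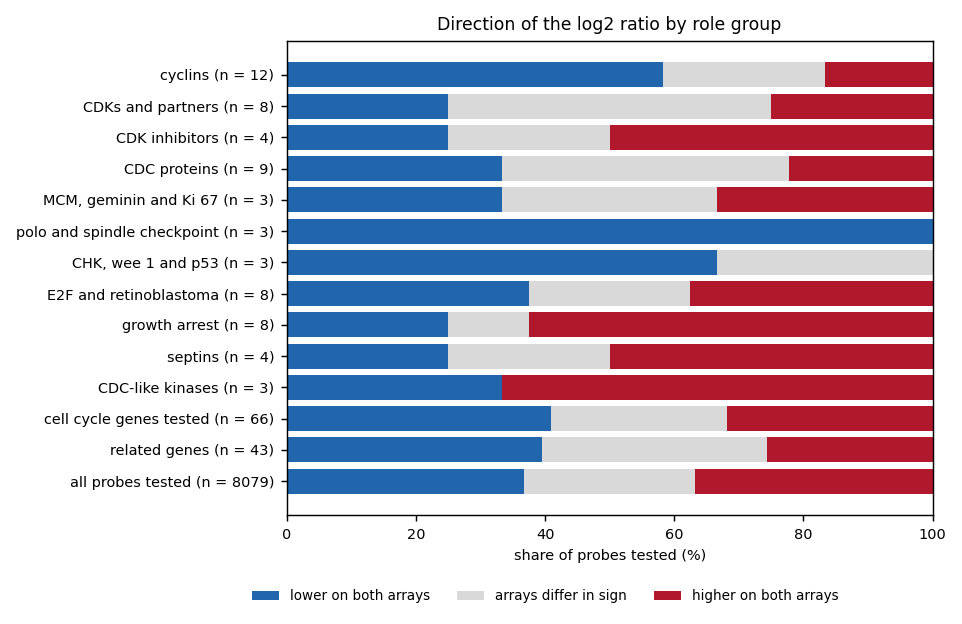
Share of probes tested (x axis, percent) that were lower on both arrays (blue), differed in sign (grey) or were higher on both arrays (red), for each role group with over 1 spot, for the 66 cell cycle genes tested, for 43 related genes and for all 8079 probes tested. The groups hold 3 to 12 spots each, so a single spot moves a bar by a large share; the bars of the members and of all probes are near each other (40.9% and 36.8% lower on both arrays).

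The growth arrest group had a median of 0.54, with 0.33 on array 1 and 0.66 on array 2. Of its 8 spots, 5 were higher on both arrays, 2 lower and 1 of mixed sign, beside 36.7% of all probes higher and 36.8% lower. Growth arrest specific 6, the ligand of the TAM receptor kinases, had signals of 3700 and 2842 after LIF-siRNA and of 1834 and 1709 after scrambled siRNA, without overlap. This gave log2 ratios of 1.01 and 0.73, with a mean of 0.87 ± 0.20 and an adjusted p of 0.0918 by limma. Growth arrest specific 5, a noncoding host gene of small nucleolar RNAs, had 0.71 and 0.61 (mean 0.66 ± 0.07). Growth arrest specific 7 had signals of 280 and 341 after LIF-siRNA and of 189 and 139 after scrambled siRNA, without overlap but under the threshold. Its log2 ratios were 0.57 and 1.29, with a mean of 0.93 ± 0.51 and an adjusted p of 0.104 by limma. Growth arrest specific 2, an actin-binding protein, had 0.71 and 0.72, also on signals under the threshold. The growth arrest specific genes share a name from their expression in resting cultured cells, while the 3 Gadd45 spots of the group are named for induction by growth arrest and DNA damage. A spot named growth arrest specific without a number had -0.49 and -1.08.

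The septins, filament proteins of the cleavage furrow, were dim, and no septin spot was past the signal threshold. Septin 4 had signals of 537 and 758 after LIF-siRNA and of 344 and 204 after scrambled siRNA. It had the highest mean of the 66 members, from log2 ratios of 0.64 and 1.89 (mean 1.27 ± 0.88, adjusted p of 0.103 by limma), so that its arrays differed by more than its lower value. Septin 1 had signals of 157 and 238 after LIF-siRNA and of 84.8 and 125 after scrambled siRNA, without overlap. In log2, septin 1 had 0.89 and 0.93, with a mean of 0.91 ± 0.02 and an adjusted p of 0.0841 by limma. Septin 3 had -0.64 and -0.10, and septin 9 had 0.03 and -0.66. The CDC-like kinases, which phosphorylate splicing factors and are no kinases of the cycle, took different directions. CDC-like kinase 2 had signals of 908 and 693 after LIF-siRNA and of 1758 and 1336 after scrambled siRNA. It had a log2 ratio of -0.95 on either array, with an adjusted p of 0.0803 by limma and a mean ratio of 0.518 that lay just outside the criterion of 0.5. CDC-like kinase had 0.11 and 0.18, and CDC like kinase 4 had 0.45 and 0.51.

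**Figure D5:**
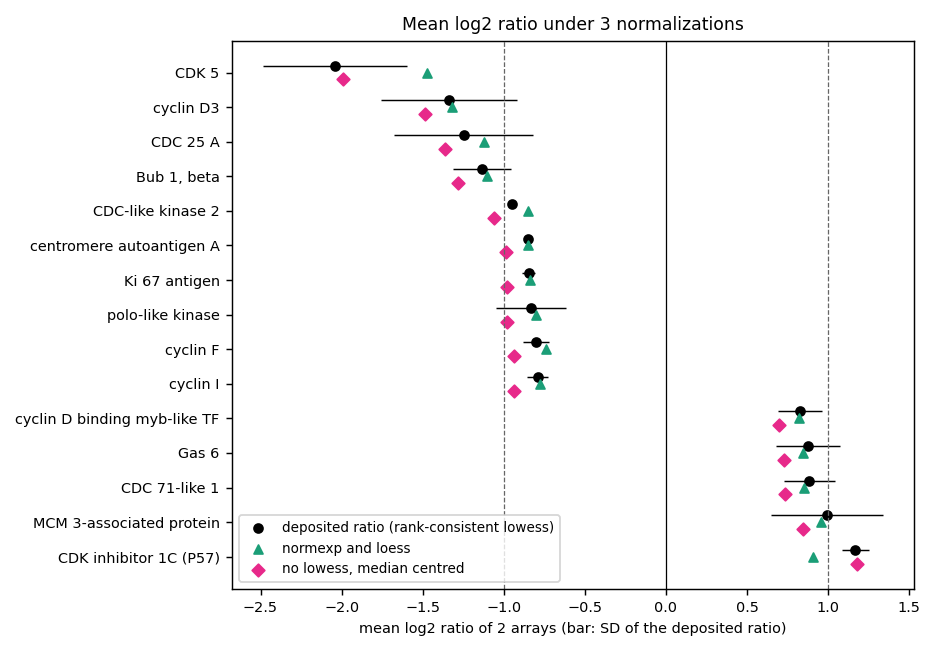
Mean log2 ratio of both arrays (x axis) of 15 members under the deposited ratio (black circles, bars are the SD), normexp with loess (green triangles) and signals without lowess centred on the median (pink diamonds). Each member keeps its side of 0 under all 3, and CDK5 moves from -2.04 to -1.48 with normexp and loess.

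Related genes, named for replication, kinesins, the anaphase-promoting complex, cohesin and proliferation control, were taken as a list of 46 spots, of which 43 were tested. The list was made by name, and many of its kinesins are motors of transport and not of the cycle. On both arrays 17 of the 43 were lower and 11 were higher, with a median of -0.01, beside 36.8% of all probes lower and 36.7% higher. By the same criteria 1 was lower (5.42% of gene spots past the signal threshold) and 1 was higher (5.33%), of 32 past the signal threshold. The lower one was kinesin heavy chain member 4, a motor of mitotic chromosomes, with -1.02 and -1.05. The higher one was B-cell translocation gene 2, an antiproliferative gene, with 0.87 and 1.29. Of the 2 enzymes of thymidine nucleotide supply, thymidine kinase 1 had -0.66 and -0.98, and thymidylate synthase had -0.77 and -0.85. Survivin (baculoviral IAP repeat-containing 5) had -0.53 and -0.47, topoisomerase II alpha had -0.43 and -0.53, and inner centromere protein had -0.23 and -0.61. B-cell translocation gene 3 had 0.99 and 0.84, and B-cell translocation gene 4, under the signal threshold, had 1.48 and 1.09. Rad21, a cohesin subunit, had 0.31 and 0.50, and kinesin-like 1 had 0.59 and 0.19. Kinesin family member 5B had 0.78 and 0.73 on one spot and 0.46 and -0.38 on another, and kinesin-associated protein 3 had -1.15 and -1.51 on signals under the threshold. Kinesin family member C1 had 2.48 on array 1 and -1.32 on array 2, and gave no direction.

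Markers of the embryo's lineages and of other cells were counted in the same way, beside 36.8% of all probes lower and 36.7% higher on both arrays. Of 10 marker names of morula and blastocyst lineages, 7 were on the array, all well above background in both channels. The spots were lower on both arrays for 4 of the 7 (Sox2, Elf3, keratin 8 and Gata6) and higher on both for 1 (cadherin 1). Sox2, a pluripotency factor, had linear ratios of 0.125 and 0.310, a mean log2 ratio of -2.35 ± 0.92 and an adjusted p of 0.0607 by limma. In log2, Elf3 had -2.17 on either array, and keratin 8, a keratin of trophectoderm, had -1.73 and -2.16, both with an adjusted p of 0.058 by limma. Gata6 had -1.34 and -1.21, cadherin 1 had 0.69 and 0.26, eomesodermin had 0.28 and -0.00, and Oct4 (POU domain, class 5, transcription factor 1) had -0.28 and 0.05. The mean log2 ratios of Sox2 and Elf3, -2.35 and -2.17, lay below that of CDK5, the lowest of the members. The summed signal of the 7 spots was 21591 and 24530 after LIF-siRNA and 32810 and 40548 after scrambled siRNA. Of 10 names of cumulus or granulosa cells, which can stay on zygotes, 3 were on the array, and 2 were higher on both arrays, with a summed signal of 958 and 978 after LIF-siRNA and of 498 and 371 after scrambled siRNA. In log2, inhibin beta-B had 1.99 and 1.62, and pentaxin related gene had 0.67 and 1.68. Tumor necrosis factor induced protein 6 had -0.63 and 0.23, and all 3 spots were under the signal threshold. Of the 3 blood spots, 1 was lower on both arrays, 1 was higher and 1 was of mixed sign, and the lower and the higher one carry the same hemoglobin name. The blood spots summed to 192 and 214 after LIF-siRNA and to 157 and 183 after scrambled siRNA. The part of these marker levels in the ratios of the cell cycle genes was not tested.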

How the data were processed

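Each array was scanned and read with Agilent Feature Extraction (version 7.5.1 in the file headers, another version in the methods), and the authors deposited that output. The deposited intensity columns hold mean, local background, background-subtracted and processed (dye-normalized) signals. The deposited log10 ratio is Cy5 over Cy3 after rank-consistent lowess and was converted to log2. The deposited p-value of the software's error model was not used for calls. The deposited log2 table of the series follows the brightness of a spot (r of 0.998 with the mean processed signal of array 1), not a ratio, and gave no value.

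Gene spots were tested where no outlier flag was set (23 had one) and where, on both arrays, at least 1 channel was well above background. The test was made with limma 3.58.1 in R 4.3.3 (lmFit, intercept only, eBayes, two-sided), with Benjamini-Hochberg adjustment over all 8079 probes and a threshold of 0.05. Counts and figures were made with Python 3.11.15, pandas 2.3.3 and matplotlib 3.10.9. The test was checked on simulated data. No gene spot was saturated. With 2 arrays, the number of replicates sets the precision of each ratio.

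Members and lists were chosen with earlier results of these data known. Log2 ratios of both arrays were given for members past the study's criteria, past 2-fold on both arrays, with the 5 highest or 5 lowest means, or in a core list of cyclins, kinases, inhibitors and checkpoint genes. The other members were given more briefly. The alternatives were normexp (offset 50) with loess, median centring, each replicate left out, other rules for signal, dim spots and outliers, an intensity trend, the methods' t-test and, chosen after seeing the data, background-subtracted signals without lowess centred on the median and a signal threshold on the mean over both channels.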

Additional observations from a re-analysis of the deposited data

How the results depend on the processing

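The study's criteria, as applied here, gave 3 lower (5.42% of gene spots past the signal threshold) and 0 higher members (5.33%). Without the signal threshold they gave 5 lower (5.13% of gene spots) and 2 higher (6.55%), and the same counts with well above background in its place. On 1 array alone, 1 to 2 members were higher (5.03% to 7.29% of gene spots) and 2 to 4 were lower (6.15% to 7.46%), and with both thresholds passed on each array 2 were lower (3.77%) and 0 higher (2.45%). For related genes, 1 was lower (5.42% of gene spots past the signal threshold) and 1 higher (5.33%). The counts were 2 lower (5.13% of gene spots) and 3 higher (6.55%) without the signal threshold. With normexp and loess 0 related genes were lower, and without lowess 0 were higher, where the shares of all gene spots were not counted. Past 2-fold on both arrays, 1 higher member (2.78% of all probes) became 0 with normexp and loess, where the share of all probes was not counted. Members called by limma are given with the share of all probes called in the same fit. They were 0 (0.0%), and became 18 with an intensity trend (13.7%) and 17 without lowess, with 1 common variance (17.7%). They became 13 when the fit held the probes past the signal threshold alone (18.7%), and 17 when that signal was averaged over both channels (22.2%). Among probes well above background in both channels, 1 member was called (3.09%). The median over members (-0.02) was -0.038 with normexp and loess, -0.12 without lowess and -0.078 to -0.072 on single arrays. With normexp and loess, cyclins had -0.29 and septins 0.20. Without lowess, medians were -0.40 for cyclins, -0.17 for the MCM group, -0.58 for CHK, wee 1 and p53, 0.45 for septins and 0.0079 for CDC-like kinases. On single arrays they ran from -0.41 to -0.36 for cyclins, -0.42 to -0.37 for CHK, wee 1 and p53, -0.23 to 0.17 for E2F and retinoblastoma, and 0.34 to 0.41 for septins, against 0.33 to 0.66 for growth arrest. The sign of the median also turned between the arrays for CDKs (-0.14 to 0.25), CDC proteins (-0.32 to 0.06) and the MCM group (-0.05 to 0.02). With no filter on dim probes the septin median was -0.31, since septin 6 then entered. The cause of the other shifts was not tested. Of 66 members, 1 changed sign with normexp and loess, 10 without lowess and 2 and 16 on array 2 and array 1 alone (the largest mean among them was 0.54, that of CDK2). Median centring changed nothing, since the deposited ratios already had a median of 0 on both arrays. The test of each log2 ratio was paired by array, because each log ratio is already the difference within 1 array, and no further pairing was added.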

Other observations

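A further 6 spots carry EST names that compare them with proteins of the cell cycle, and were outside the genes described. The clone similar to the cyclin G-associated kinase of rat, a kinase of clathrin uncoating, had log2 ratios of -1.04 and -1.28 on signals of 1657 to 4277, with an adjusted p of 0.0669 by limma. The clone weakly similar to a cell division protein kinase 2 homolog had 1.52 and 1.60, on signals of 132 to 405, under the signal threshold. The clone similar to the mitotic control protein dis3 had -0.63 and -0.54, and the clone similar to the cell division protein BIMB had 0.32 and 0.24. The 2 spots similar to the PITSLRE kinase took opposite signs on each array, -0.21 and 0.18 on one and 0.21 and -0.18 on the other.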
